A study of Mus musculus with 6 samples.

Results

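Chromatin accessibility was followed at the promoters of the mouse genes whose symbol is Zfp and a number of 600 or above, a family of zinc finger transcription factors. The members were chosen by symbol among the protein-coding genes of GENCODE M21 on the mm10 genome, which gave 182 of 21938 genes, 11 of them with a letter after the number, and all were kept. A member counted as clustered when its start site lay within 500 kb of that of another member, which put 126 genes into 25 clusters, of which 8 held at least 5 members, and left 56 single genes. The widest gap inside a cluster was 484.87 kb, between Zfp975 and Zfp936, and the narrowest gap left out was 515.47 kb, between Zfp746 and Zfp775. The family and its measures (presence of a peak, rank of its fold and recovered height across oxygen levels) were picked with results of these data known, so counts over members are given as a description beside the same counts over all genes, with no test over the list.

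The cells were GL261, a mouse glioma line, in a population stably carrying the GFP plasmid pEGFP-N1. One group was kept in normoxia at 21% O2, one at 1% O2 for 16 h and one at <0.1% O2 for 16 h, and every group carried the plasmid and was fixed in formaldehyde before Tn5 tagging. Each group held 2 ATAC-seq libraries, an assay that reads open chromatin from where the transposase can insert, and the labels do not say whether the libraries came from separate cultures. The p-values therefore measure only the spread between these libraries, which may be technical, and both hypoxic groups were compared with the same normoxic libraries.

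C2H2 zinc finger proteins bind DNA through tandem fingers, each of which contacts a few bases. Many carry a KRAB domain at the amino terminus, which recruits the corepressor TRIM28 (KAP1), the histone methyltransferase SETDB1 and HP1 proteins to build heterochromatin, often over retrotransposons. KRAB zinc finger genes multiply by tandem duplication, so they lie in clusters of near-identical copies that differ strongly between species and mouse strains. Members without the domain include regulators with other partners, such as Zfp644, which acts with the methyltransferases G9a and GLP, and Zfp703, a corepressor of the NET family.

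The letters just upstream of 6 start sites are shown as examples of the promoters described in the results. They come from RefSeq promoter records on GRCm38.p6, read 5′ to 3′ on the strand of the gene, and capitals mark the CCAAT box (CCAAT, or ATTGG on the other strand), the GC box (GGGCGG or CCGCCC), the ETS core (CCGGAAG or CTTCCGG), the hypoxia response core (GCGTG or CACGC) and the E box (CACGTG). None of these motifs lies inside another. Zfp966 at chr2:175931101-175931220 (minus strand) and Zfp967 at chr2:176520884-176521003 (plus strand) are duplicate copies with no peak in any library. Zfp951 at chr5:104860071-104860190 (minus strand), Zfp945 at chr17:22867135-22867254 (minus strand) and Zfp942 at chr17:21962465-21962551 (minus strand) lie under peaks that were lower at <0.1% O2. Of these, only that of Zfp951 was also called lower at 1% O2. Zfp747 at chr7:127376051-127376170 (minus strand) lies under a peak that rose.
Zfp966: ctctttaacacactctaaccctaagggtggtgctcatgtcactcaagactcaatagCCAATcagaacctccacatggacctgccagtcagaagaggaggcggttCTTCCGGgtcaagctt
Zfp967: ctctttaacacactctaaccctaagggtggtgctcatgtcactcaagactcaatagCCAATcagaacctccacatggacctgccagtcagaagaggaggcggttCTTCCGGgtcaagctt
Zfp951: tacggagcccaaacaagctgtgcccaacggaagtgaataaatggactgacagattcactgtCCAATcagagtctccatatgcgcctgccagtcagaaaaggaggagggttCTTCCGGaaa
Zfp945: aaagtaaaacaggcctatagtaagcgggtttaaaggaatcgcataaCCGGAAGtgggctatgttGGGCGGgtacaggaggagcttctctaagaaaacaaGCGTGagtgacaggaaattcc
Zfp942: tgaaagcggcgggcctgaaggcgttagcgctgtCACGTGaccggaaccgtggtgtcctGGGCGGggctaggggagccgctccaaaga
Zfp747: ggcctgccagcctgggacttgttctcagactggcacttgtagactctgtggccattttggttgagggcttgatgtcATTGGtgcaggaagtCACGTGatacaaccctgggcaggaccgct

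The 6 peak lists held 33006 to 43554 peaks, and the background coverage recovered from them ran from 2.16 to 3.35 fragments per base, higher in every hypoxic library than in the normoxic ones. Stretches of more than 200 bp shared by peaks of both libraries of a group were kept. Joining these across groups gave 41308 regions, of which 28432 had a peak in all 6 libraries and were compared. The height of a peak is given as a relative pileup, the number of fragments over its summit divided by the median over these 28432 peaks in the same library. Among the genes that mark glial and glioma cells, Gfap, Nes, Vim, Sox2, Olig2, S100b and Cd44 had promoter peaks in all 6 libraries and Egfr had none, and Cd3e, Ptprc, Alb, Krt5 and Rbfox3, which mark other cell types, had none. Of these 7 glial promoters, 5 were called lower at <0.1% O2 by limma, beside 42.9% of all protein-coding genes compared.

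Most members had an open promoter, and which ones did hardly varied with oxygen. A peak within 2000 bp of a start site was found for 129 and 133 members in normoxia; at 1% O2 the counts were 132 and 133, while <0.1% O2 gave 127 and 126. It was found in all 6 libraries for 123 members (67.6%), in 1 to 5 for 11 and in none for 48 (26.4%). Across all protein-coding genes 53% had a peak in all 6 libraries and 41.7% in none, whereas 186 of the 209 Zfp genes numbered below 600 (89.0%) had one in all 6. Among clustered members 81 of 126 (64.3%) and among single ones 42 of 56 (75%) were open in all 6, and differences between such shares were not tested here or below. The peak kept farthest from its start site was that of Zfp626, at 1943 bp, and the nearest peak of a member with none in the window lay 3046 bp away, at Zfp750.

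Promoters without a peak often lay in repeated sequence. Uniqueness was measured as the share of 50-base windows within 500 bp of the start site that occur once in the genome, since the aligned reads were kept only where their mapping was of high quality. Of the 58 members below 90% uniqueness, 53 were clustered, 21 (36.2%) had a peak in all 6 libraries and 28 had none. Over all genes below 90%, 15.6% had a peak in all 6 and 81.0% had none. Of the 124 members at or above 90%, 102 (82.3%) had a peak in all 6 and 20 had none, beside 58.5% and 36% of all genes. Of the 17 members below 20%, 16 had none and 0 had one in all 6. Among members at or above 90%, 65 of 73 clustered genes (89.0%) and 72.5% of the single genes were open in all 6 libraries, the reverse of the order over all members. In a repeated region the absence of a peak therefore cannot be told apart from reads that could not be placed.

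No unique window and no peak were found for 9 members. On chromosome 2 these were the 4 from Zfp968 to Zfp966 and the pair Zfp967 and Zfp973, and the others were Zfp781 on chromosome 10 and Zfp955a and Zfp955b on chromosome 17. The RefSeq records of Zfp966 and Zfp967, shown above, were identical over 300 bases, as were those of Zfp955a and Zfp955b, and those of Zfp968 and Zfp973 shared 299 of 300. The largest cluster, with 17 members from Zfp990 to Zfp933 on chromosome 4 (chr4:145510759-147848366), had 15 members without a peak, at 5.69 to 100% uniqueness over the cluster. Its 2.34 Mb held 2 joined peaks, or 0.856 per Mb, against 15.2 per Mb genome-wide. In contrast, all 10 members from Zfp712 to Zfp738 on chromosome 13 and all 9 from Zfp771 to Zfp646 on chromosome 7 had a peak in all 6 libraries. The 20 unique promoters without a peak included Zfp804a, Zfp804b, Zfp648, Zfp750, an epidermal differentiation factor, and Zfp831; these 5 were named after their values were seen.

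**Figure D1:**
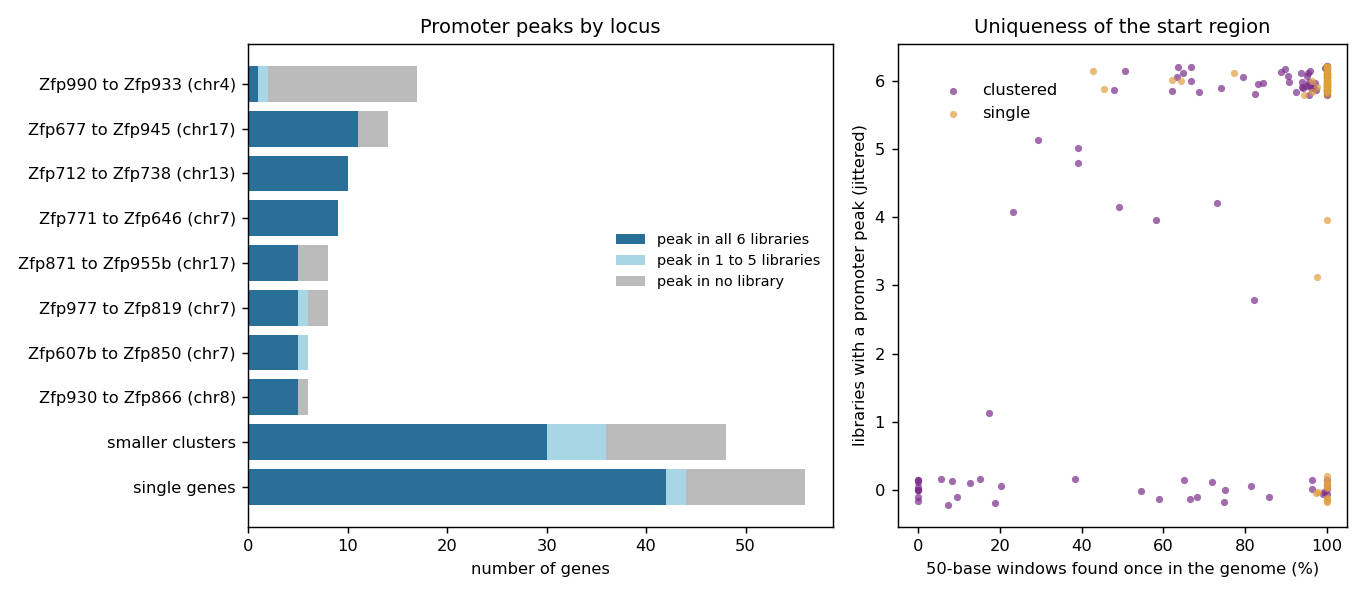
Number of members with a promoter peak in all 6, in 1 to 5 or in no library for the 8 clusters of at least 5 members, the smaller clusters and the single genes (left), and the number of libraries with a peak against the percentage of 50-base windows found once in the genome (right, 1 point per gene, moved slightly up or down so that points show). The chromosome 4 cluster has 15 of 17 members without a peak, and the points at low uniqueness lie almost all at 0 libraries.

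A total loss of a promoter peak was rare and was seen at <0.1% O2. Peaks present in both normoxic and neither hypoxic library were lost at <0.1% O2 for 3 members, beside 0.346% of all protein-coding genes, and at 1% O2 for 0 members, beside 0.0820%. No member gained a peak at <0.1% O2 (0.638% of all genes) or at 1% O2 (0.871%). Zfp970 had 34 and 35 fragments over the summit in normoxia and 32 and 31 at 1% O2 before it dropped out of both lists at <0.1% O2. Zfp704 had 15 and 29 in normoxia and 31 and 25 at 1% O2, and Zfp984 had 19 and 25, then 21 and 33. These summits held 15 to 35 fragments, while the median summit of a library held 52 to 69. Zfp977 had a peak in both libraries at 1% O2, with 29 and 24 fragments, in 1 normoxic library, with 24, and in neither at <0.1% O2. The other members with peaks in 1 to 5 libraries were Zfp808, Zfp934, Zfp935, Zfp957, Zfp972, Zfp931 and Zfp626, and Zfp934 and Zfp935 shared 1 peak.

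Of the 182 members, 124, 82 clustered and 42 single, could be compared in height, on 121 distinct joined peaks with signal in all 6 libraries. They were the 123 open in all 6 libraries and Zfp626, whose joined peak was found in all 6 but reached into the 2000 bp window in 4. In normoxia the relative pileup was highest at Zfp622, a ribosome biogenesis factor, with 6.20 and 6.85, followed by Zfp654 with 4.15 and 4.89 and Zfp868 with 4.43 and 4.56. It was lowest at Zfp974 with 0.311 and 0.412, Zfp772 with 0.443 and 0.30, and Zfp810 with 0.377 and 0.425.

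The fold over background and the pileup ranked the clustered promoters differently. As a percentile among the 28432 peaks, the median rank of the fold in normoxia was 83.7 for clustered and 75 for single members, beside 67.7 over all genes. By pileup the order was the reverse, with 63.9 for clustered and 77.4 for single members, beside 70.1. The rank by fold minus the rank by pileup had a median of 15 points in clustered members, -2.40 in single ones and 0.0818 over all genes. The Zfp genes numbered below 600 had a gap of 9.88 points, although 194 of their 209 start regions were at least 90% unique. It was 42.1 points in members below 90% uniqueness and 4.15 in the others. A fold divides the summit by the local background, and among the members the gap between both ranks moved with uniqueness, whose part in the high fold ranks of the clusters was not tested.

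**Figure D2:**
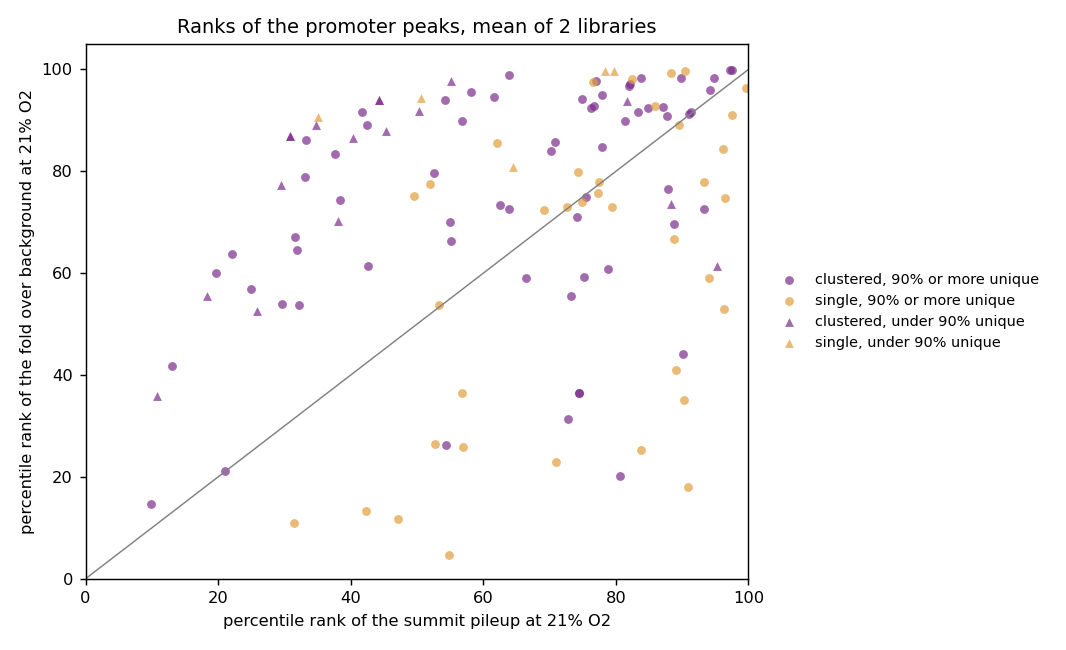
Percentile rank of the fold over background against percentile rank of the summit pileup in normoxia, each the mean of 2 libraries, for the 124 members compared; circles are start regions of at least 90% unique windows, triangles the others, and the line marks equal ranks. The triangles lie almost all above the line, with a median gap of 42.1 points.

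At <0.1% O2, promoter peaks of the family were called lower more often than higher. By limma with Benjamini-Hochberg adjustment over all compared peaks, 54 of 124 members (43.5%) were lower and 7 (5.65%) higher at an adjusted p below 0.05. Over all 11596 protein-coding genes compared, 42.9% were lower and 11.7% higher, so the share lower was near the background in this fit. The median log2 change of the summit pileup was -0.27 in the members and -0.24 over all genes. Of the single genes 25 of 42 (59.5%) were called lower and of the clustered ones 29 of 82 (35.4%), with medians of -0.37 and -0.24. Leaving out 1 library gave 18 to 23 single and 19 to 28 clustered members lower, the 19 without replicate 2 at <0.1% O2, while 32.6 to 41.5% of all genes were lower. The Zfp genes numbered below 600 lay between, at 82 of 186 (44.1%). The peaks of single members were richer in G and C, with a median of 59.6% against 54.7% in clustered members. With the trend of the change on GC content subtracted, 46 members (37.1%) were lower and 9 (7.26%) higher, beside 24.6% and 20.8% of all genes, so the share lower was then above the background. The Zfp genes numbered below 600 had the same share lower, at 69 of 186 (37.1%). In that fit 20 of the 42 single members (47.6%) and 26 of the 82 clustered ones (31.7%) were lower.

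Among the members lower at <0.1% O2, the smallest adjusted p was that of Zfp605, on a peak (chr5:110107485-110108422) that covers the start of Gtpbp6 and lies 1670 bp from its own. Its relative pileup was 3.49 and 3.98 in normoxia, 2.64 and 2.68 at 1% O2, and 1.83 and 1.77 at <0.1% O2. The groups did not overlap and the fall was stepwise, by 1.05 ± 0.10 on the log2 scale (SE, n = 2 per group; adjusted p = 3.99e-10, limma) at <0.1% O2. Zfp654 shares its peak (chr16:64851257-64852460) with the start of Cggbp1, and had relative pileups of 4.15 and 4.89, then 3.41 and 3.34, then 2.31 and 2.48, again in steps without overlap. It fell by 0.91 ± 0.10 (adjusted p = 3.59e-09, limma) at <0.1% O2.

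Zfp951, a single KRAB gene whose upstream letters are shown above, had relative pileups of 2.08 and 1.89 in normoxia, 1.14 and 1.17 at 1% O2, and 0.939 and 0.854 at <0.1% O2. All hypoxic libraries lay below both normoxic ones, and the fall was 1.15 ± 0.13 on the log2 scale (adjusted p = 9.59e-09, limma) at <0.1% O2. Zfp644, the G9a partner, gave 2.05 and 2.03, then 1.29 and 1.11, then 0.970 and 0.951, on a peak that also holds the start of Gm28039. It fell by 1.08 ± 0.13 (adjusted p = 2.07e-08, limma). Zfp777 had the lowest peak of those named here, at 1.18 and 1.05, then 0.657 and 0.684, then 0.485 and 0.512, and fell by 1.16 ± 0.17 (adjusted p = 1.08e-06, limma). The other members of the 8 with the smallest adjusted p were Zfp800, Zfp941 and Zfp655, which changed by -0.93, -0.91 and -0.76. The Zfp800 peak (chr6:28261088-28262616) lies near another of its start sites, not at the 5′ end of the gene at position 28398005. For each of these 8 the 2 libraries at <0.1% O2 lay below both normoxic ones, and the log2 change of the pileup was negative in every fit tried. Each passed at an adjusted p below 0.05 by limma in the fits that kept all 6 libraries. With the GC trend subtracted, the changes shrank to -0.39 at Zfp654, -0.41 at Zfp800, -0.45 at Zfp655, -0.59 at Zfp777 and -0.70 at Zfp644. By the rule on fold ranks given further on, Zfp605, Zfp941 and Zfp655 were also called lower at <0.1% O2. Zfp654, Zfp951, Zfp644, Zfp800 and Zfp777 were not called by that rule.

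The members higher at <0.1% O2 were 7. Zfp607b, a KRAB gene of the chromosome 7 cluster from Zfp607b to Zfp850, had relative pileups of 2.48 and 2.93 in normoxia, 3.16 and 3.66 at 1% O2, and 4.57 and 4.77 at <0.1% O2. The groups did not overlap and rose in steps, by 0.79 ± 0.10 on the log2 scale (adjusted p = 7.67e-08, limma) at <0.1% O2. Zfp609, a partner of the cohesin loader NIPBL, gave 0.770 and 0.537, then 0.759 and 0.633, then 1.28 and 1.09, on a peak 988 bp from its start site. Both libraries at <0.1% O2 lay above the others, by 0.87 ± 0.18 against normoxia (adjusted p = 0.000112, limma), and the groups at 21% and 1% O2 overlapped. The other 5, Zfp940, Zfp791, Zfp747, Zfp867 and Zfp692, rose by 0.27 to 0.52, and all lost the call when the libraries were scaled by background coverage. Each also lost it without at least 1 normoxic library and without at least 1 library at <0.1% O2, and Zfp867 lost it with the GC trend subtracted, so that the call was lost in 3 to 5 of the 13 fits tried.

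**Figure D3:**
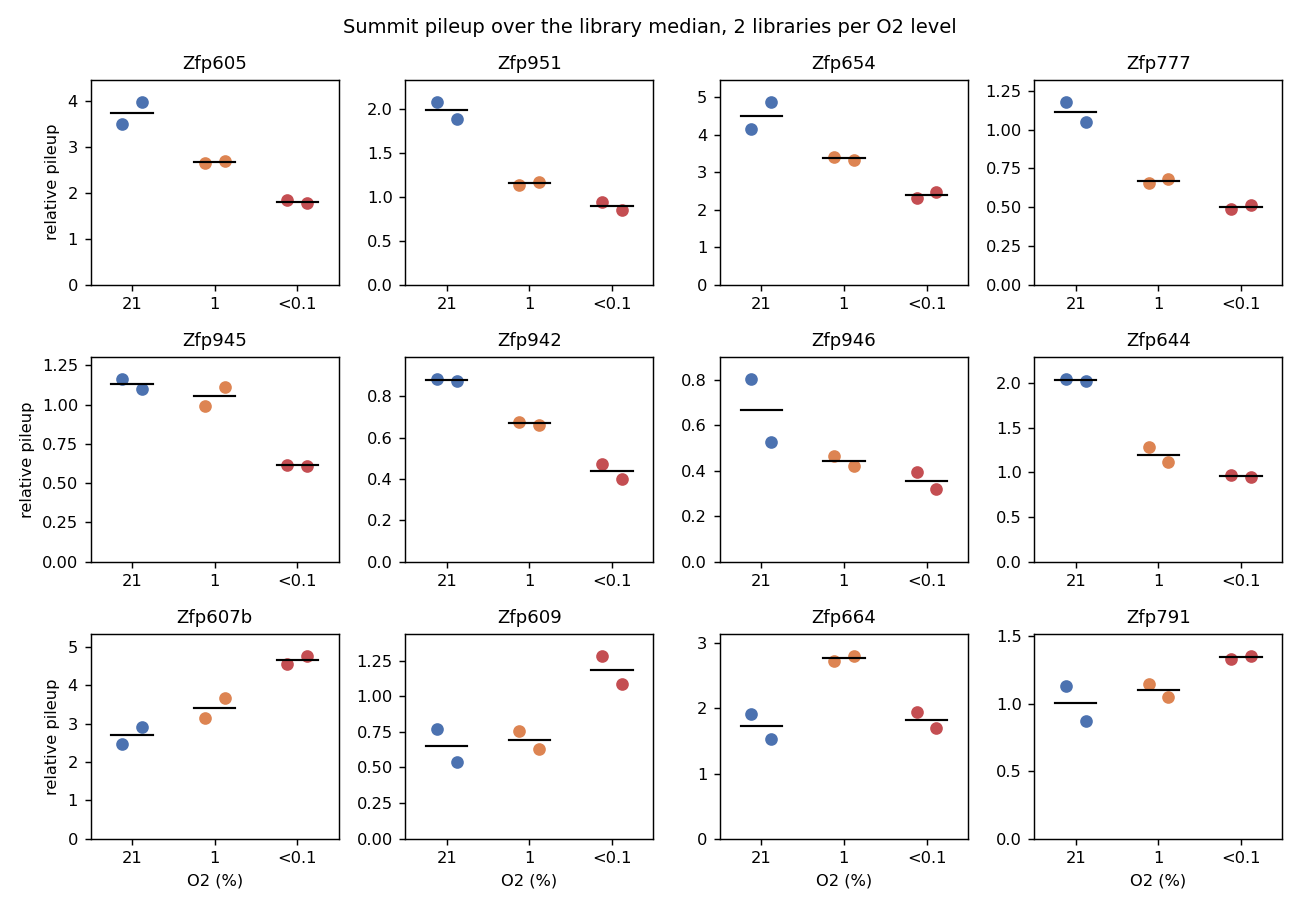
Relative pileup (summit fragments over the library median) at 12 promoters by oxygen level; points are the 2 libraries of each level and bars their mean, and each axis starts at 0. The 8 promoters of the upper rows are lower in both libraries at <0.1% O2 than in both normoxic ones, Zfp607b, Zfp609 and Zfp791 are higher, and Zfp664 is highest at 1% O2.

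At 1% O2, fewer members passed and the count depended on the scaling. By limma 31 of 124 members (25.0%) were lower, beside 22.7% of all genes, and 5 (4.03%) were higher, beside 12.5%. Of the single members 20 of 42 (47.6%) were called lower and of the clustered ones 11 of 82 (13.4%), with median log2 changes of -0.23 and -0.07 beside -0.08 over all genes. Without replicate 1 at 1% O2 the clustered count was 5, without replicate 2 the single count was 13, where 15.7% and 13.6% of all genes were lower, and scaling by background coverage left 0 clustered and 2 single members lower. When the libraries were scaled by background coverage, which moved the median of all peaks by 0.17 on the log2 scale at 1% O2 and by -0.17 at <0.1% O2, 2 members were lower and 2 higher at 1% O2, beside 2.60% and 7.89% of all genes, and 42 were lower and 2 higher at <0.1% O2, beside 37.9% and 1.76%. Under quantile normalization 26 were lower and 12 higher at 1% O2, beside 18.1% and 17.7%.

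Zfp637 had the smallest adjusted p of the members lower at 1% O2, with relative pileups of 2.85 and 3.09 in normoxia, 1.90 and 1.89 at 1% O2, and 2.39 and 2.33 at <0.1% O2. Both hypoxic levels lay below normoxia and the 1% libraries were lowest, with a log2 change of -0.65 ± 0.11 (adjusted p = 7.77e-06, limma) at 1% O2. Zfp644 and Zfp951 changed by -0.77 and -0.78 at 1% O2, and Zfp703 by -0.60. Under background coverage scaling Zfp637 and Zfp703 lost the call at 1% O2, at an adjusted p of 0.104 and 0.158 by limma, while Zfp644 and Zfp951 kept it. Zfp664, on a peak that covers the start of Ccdc92, was the member that rose most clearly, from 1.92 and 1.54 in normoxia to 2.73 and 2.81, with 1.94 and 1.7 at <0.1% O2. It rose by 0.69 ± 0.12 (adjusted p = 1.59e-05, limma) at 1% O2, and the libraries at <0.1% O2 overlapped the normoxic ones. The others higher at 1% O2 and named by the rule were Zfp747 (log2 change 0.58), Zfp607b (0.34) and Zfp930 (0.30), and the last 2 lost the call under background coverage scaling. Zfp607b also lost it without normoxic replicate 1 or replicate 2 at 1% O2, and Zfp930 without normoxic replicate 2, without any 1 hypoxic library or with the GC trend subtracted, in 7 of the 13 fits tried.

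A direct test of <0.1% against 1% O2 by limma called 21 members (16.9%) lower, beside 21.1% of all genes, and 5 (4.03%) higher, beside 2.84%. The counts were 11 lower of 82 clustered (13.4%) and 10 lower of 42 single members (23.8%). With the GC trend subtracted they were 7 (8.54%) and 2 (4.76%), beside 2.45% of all genes, so the order of the shares was reversed. Zfp945, whose upstream letters are shown above, had relative pileups of 1.16 and 1.10 in normoxia, 0.991 and 1.11 at 1% O2, and 0.616 and 0.610 at <0.1% O2. The groups at 21% and 1% O2 overlapped and those at <0.1% O2 lay far below, with a log2 difference of -0.78 ± 0.16 (adjusted p = 0.000366, limma) from 1% O2. Zfp605 and Zfp664 also lay lower at <0.1% than at 1% O2, by -0.57 and -0.61, and lost the call when the GC trend was subtracted. Zfp609, Zfp949 and Zfp607b lay higher, by 0.77, 0.50 and 0.46, and none of these passed under background coverage scaling. Over the 13 fits tried, the reported one included, Zfp609 lost the call in 3, Zfp949 in 6 and Zfp607b in 2. Leaving out any library at 1% or <0.1% O2 reduced the 21 members lower to between 11 and 12, beside 8.18 to 12.6% of all genes, and without either normoxic library there were 26. Scaling by background coverage gave 45 (36.3%), beside 37.5% of all genes. With the GC trend subtracted 9 (7.26%) were lower, beside 2.45%, so the share was then above the background, where in the fit reported it was below.

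Changes in the rank of the fold were called by a rule of size: the libraries of the hypoxic level had to lie on one side of the normoxic libraries, without overlap, and the mean had to shift by 10 percentile points or more. At <0.1% O2, 27 members were lower, beside 28.2% of all genes, and 7 higher, beside 10.9%. At 1% O2, 22 were lower, beside 16.1%, and 4 higher, beside 11.0%. At <0.1% O2, 21 of 82 clustered (25.6%) and 6 of 42 single members (14.3%) were lower, so the order of the shares was the reverse of that by pileup. At 1% O2, 12 of 82 clustered (14.6%) and 10 of 42 single members (23.8%) were lower, in the same order as by pileup. The median rank change at <0.1% O2 was -3.73 points in clustered and -1.55 in single members, beside -3.12 over all genes, and at 1% O2 it was -2.72 and -2.08, beside -1.02. With ranks taken over each whole peak list, the medians at <0.1% O2 were -1.14 in clustered and 0.24 in single members, a change of direction in the latter, beside -0.20 over all genes. The lists differ in length, with 33006 and 36188 peaks in normoxia and 43554 and 39348 at <0.1% O2. Percentiles over whole lists can therefore shift without a change at the peak.

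The cluster from Zfp677 to Zfp945 on chromosome 17 (chr17:21383748-22867134) held many of the falls at <0.1% O2. It holds 14 members, all with the letters of a KRAB domain, of which 11 were compared, and 8 of these 11 were called lower at <0.1% O2 and 0 higher by limma, beside 42.9% and 11.7% of all genes. Their median log2 change was -0.82, beside -0.20 in the 71 compared clustered members outside it, of which 21 (29.6%) were lower. At 1% O2, 2 of the 11 were lower, beside 22.7% of all genes, and the median was -0.38. Under background coverage scaling 0 were lower there, beside 2.60%, with the GC trend subtracted 5, beside 19.7%, and without any 1 library 1 or 2, beside 13.6 to 21.99%. The cluster was singled out after its values were seen, so these figures describe it and are no test of it. The 8 lower calls rest on 6 peaks, since Zfp942 and Zfp943 share 1 divergent peak and Zfp944 and Zfp758 share another.

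In this cluster the shared peak of Zfp942 and Zfp943 had relative pileups of 0.885 and 0.875 in normoxia, 0.676 and 0.663 at 1% O2, and 0.475 and 0.402 at <0.1% O2. It stepped down without overlap, by 1.01 ± 0.18 on the log2 scale (adjusted p = 2.45e-05, limma) at <0.1% O2, and its fold rank went from 89.9 and 98.0 to 56.0 and 33.7. The shared peak of Zfp944 and Zfp758 changed by -0.82, Zfp946 by -0.88, Zfp945 by -0.88, Zfp948 by -0.62 and Zfp983 by -0.35. Zfp677, Zfp760 and Zfp994, also in the cluster, did not pass, at 0.17, -0.18 and -0.41. Zfp948, at 2.51 and 2.79 in normoxia, was the highest of the peaks called lower here, and the shared peak of Zfp944 and Zfp758, at 0.705 and 0.575, was among the lowest. Of the other protein-coding genes in the interval, 6 were compared and 2, Zfp53 and Zfp229, were lower, with a median of -0.27. The count of members lower at <0.1% O2 ran from 7 to 9 of 11 over the fits on all compared peaks, and was 5 of 7 when peaks of low mean pileup were left out.

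In the other clusters of at least 5 members the counts are read beside 42.9% lower and 11.7% higher over all genes at <0.1% O2, or 32.6 to 41.5% lower without 1 library. On chromosome 13 from Zfp712 to Zfp738, 3 of 10 were lower at <0.1% O2, with a median log2 change of -0.28 and a median fold rank of 90.8 in normoxia, and without normoxic replicate 2 the count was 1. On chromosome 7 from Zfp771 to Zfp646, 3 of 9 were lower and 1, Zfp747, was higher, and since Zfp668 and Zfp646 share 1 peak, the 3 lower calls rest on 2 peaks. The 3 became 0 without normoxic replicate 1, without replicate 2 at <0.1% O2 or with the GC trend subtracted, where 2 were higher and 24.6% of all genes were lower. From Zfp977 to Zfp819 1 of 5 was lower, and 0 without either library at <0.1% O2, and from Zfp607b to Zfp850 0 of 6 were lower and 1 was higher, with a median of 0.17. On chromosome 8 from Zfp930 to Zfp866 and on chromosome 17 from Zfp871 to Zfp955b, 0 of 5 in each were called by limma at <0.1% O2, with medians of -0.10 and -0.07. In the cluster of 4 from Zfp970 to Zfp931 on chromosome 2, named after its values were seen, Zfp970 had no peak at <0.1% O2, Zfp972 had 1 in 1 of the libraries there, and Zfp931 had 1 in a single library at 1% O2. The remaining member, Zfp971, had relative pileups of 0.541 and 0.713 in normoxia, 0.574 and 0.561 at 1% O2, and 0.263 and 0.341 at <0.1% O2. The libraries at <0.1% O2 lay lowest, and the change was -1.05 ± 0.22 (adjusted p = 0.000127, limma), in start regions of 17.4 to 47.9% uniqueness.

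**Figure D4:**
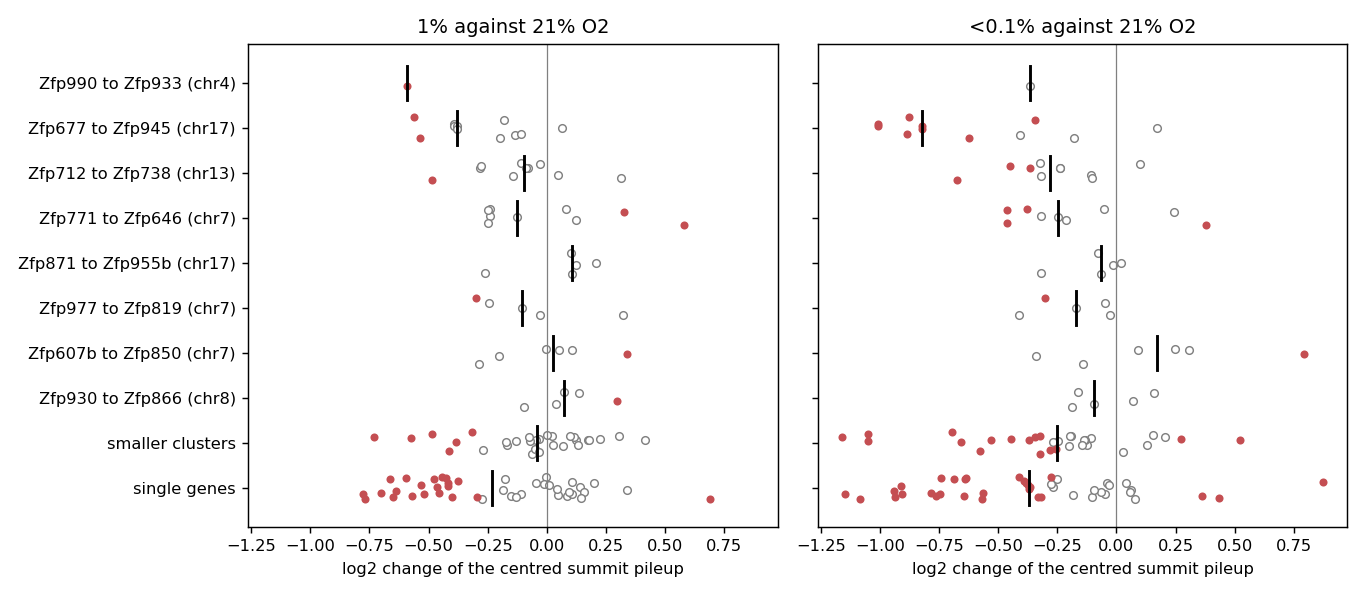
Log2 change of the summit pileup against normoxia, centred on the median peak, at 1% O2 (left) and <0.1% O2 (right) for each member compared, by cluster; filled points have an adjusted p below 0.05 by limma, open points do not, and bars are medians. In the chromosome 17 cluster 8 of 11 points are filled at <0.1% O2, with a median of -0.82.

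The members were also divided by their coding sequences. A KRAB-like stretch of letters was found in the translated sequence of 118 of 182 members, 99 of them clustered and 19 single, and the members held 0 to 33 C2H2 fingers. Members with the stretch had a median of 11.5 fingers and those without a median of 7. At <0.1% O2, 25 of 75 compared members with it (33.3%) and 29 of 49 without it (59.2%) were called lower by limma, beside 42.9% of all genes, and 5 and 2 were higher, beside 11.7%. The median GC content of their peaks was 53.8% and 63.0%, so domain, locus class and base composition moved together and cannot be told apart here. Zfp809, a KRAB protein known to silence murine leukemia virus, was named for that role, and had relative pileups of 1.85 and 1.94 in normoxia, 2.05 and 1.82 at 1% O2, and 1.7 and 1.73 at <0.1% O2. Its log2 changes of -0.14 at <0.1% O2 and 0.03 at 1% O2 did not pass.

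The promoter letters of the family were counted beside those of other genes. RefSeq records of 300 bases, 250 before and 50 after the start, matched 154 members, 110 clustered and 44 single, and 16539 protein-coding genes in all, and motifs were searched on both strands. The CCAAT box was found in 57.8% of member promoters (63.6% of clustered, 43.2% of single), beside 38.7% of all. The GC box was found in 43.5%, beside 48.4%, the hypoxia response core in 37.0%, beside 39.6%, and the letters TATAAA in 2.60%, beside 12.9%. The ETS core was found in 18.2%, beside 12.4% of all and 24.9% of the Zfp genes numbered below 600. Among promoters with a compared peak the shares were 52.7% of members beside 39.4% of all for the CCAAT box, 45.5% beside 67.9% for the GC box, 39.1% beside 54% for the hypoxia response core and 15.5% beside 19.7% for the ETS core, so the order for the ETS core was the reverse. A CCAAT box followed by CTTCCGG 35 to 60 bases on, as in Zfp966, Zfp967 and Zfp951 above, was found in 12 members (7.79%), beside 74 of 16539 promoters (0.447%), and among promoters with a compared peak in 4 of 110 members (3.64%), beside 58 of 9119 (0.636%). These 12 were Zfp936, Zfp938, Zfp951, Zfp958, Zfp825, Zfp965, Zfp966, Zfp967, Zfp968, Zfp972, Zfp973 and Zfp977, several of which are copies of one another.

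Calls at <0.1% O2 were set beside the ETS core. Where the RefSeq record lay in the compared peak, 12 of 15 members with the core (80.0%) and 29 of 85 without it (34.1%) were lower by limma. Over all protein-coding genes the shares were 952 of 1720 (55.3%) and 2591 of 6275 (41.3%), and over the Zfp genes numbered below 600 they were 19 of 37 (51.4%) and 43 of 100 (43.0%). Of the 12 lower members with the core, Zfp951, Zfp945, Zfp655, Zfp606 and Zfp617 changed most, by -1.15, -0.88, -0.76, -0.69 and -0.70. Zfp759, Zfp825, Zfp668, Zfp958, Zfp688, Zfp787 and Zfp938 changed by -0.67 to -0.32. The 3 with the core that did not pass were Zfp974, at 0.31, Zfp653, at -0.14, and Zfp780b, at -0.14. Zfp951, Zfp958, Zfp825 and Zfp938 also held the CCAAT box followed by CTTCCGG given above, and whether their promoters are copies of one another was not tested. The CCAAT box went the other way, with 18 of 55 members holding it (32.7%) and 23 of 45 without it (51.1%) lower, beside 36.9% and 49.4% over all protein-coding genes and 44.8% and 45.6% over the Zfp genes numbered below 600. The relation with the ETS core was noticed among 9 motifs after the values were seen and has no test, and a match of letters does not show that a factor binds there.

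**Figure D5:**
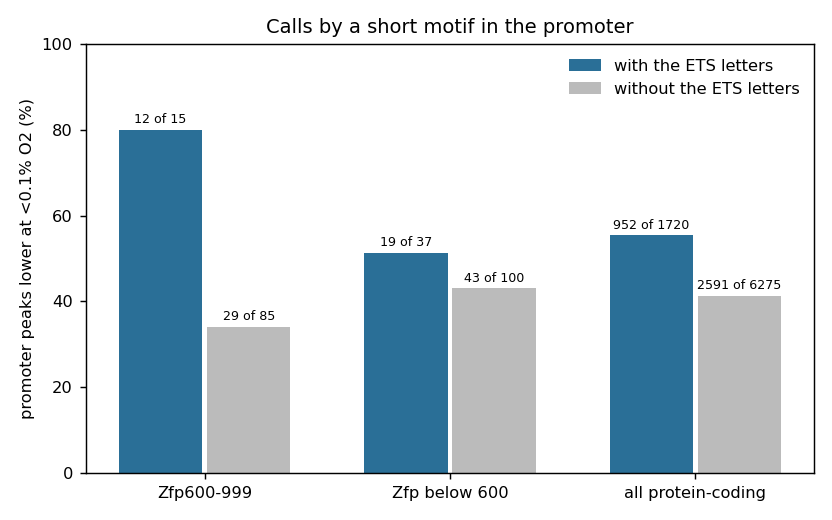
Percentage of promoter peaks called lower at <0.1% O2 (limma, adjusted p below 0.05) with and without the ETS core (CCGGAAG on either strand) in the promoter record, for members, Zfp genes numbered below 600 and all protein-coding genes whose record lies in the compared peak; the counts stand above the bars. In the members the counts are 12 of 15 against 29 of 85.

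The corepressors that act with KRAB zinc finger proteins were read from a list of 21 genes, of which 20 had a compared promoter peak and Chd3 had none. At <0.1% O2, 14 of the 20 were lower and 1, Cbx5, was higher, beside 42.9% and 11.7% of all genes, with a median log2 change of -0.57 beside -0.24. At 1% O2, 7 were lower and 1, Hdac1, was higher, beside 22.7% and 12.5%, with a median of -0.24 beside -0.08. Trim28, the corepressor that the KRAB domain binds, had relative pileups of 2.41 and 2.75 in normoxia, 2.34 and 2.29 at 1% O2, and 1.53 and 1.51 at <0.1% O2. The libraries at <0.1% O2 lay well below all others by pileup, and the change was -0.76 ± 0.11 (adjusted p = 6.81e-07, limma). The fold rank of Trim28 went the other way. It was 57.67 and 56.38 in normoxia, 70.85 and 77.85 at 1% O2, and 63.41 and 62.14 at <0.1% O2. Setdb1, its methyltransferase partner, changed by -0.50, Atf7ip, which stabilises SETDB1, by -1.04, and Cbx3, an HP1 protein, by -0.97. The HP1 genes did not move together: Cbx5 changed by 0.29, and Cbx1, at -0.23, did not pass (adjusted p = 0.103, limma). Pphln1, a subunit of the HUSH silencing complex, changed by -1.52. Bulk accessibility cannot separate a lower signal in every cell from a closed promoter in some of them.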

How the data were processed

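ATAC-seq peaks were measured in 6 libraries of GL261 cells, 2 for each oxygen level. Per the labels and the study's methods, the authors trimmed reads with Trimmomatic, aligned them to mm10 with Bowtie2 2.2.5, removed duplicates with Picard, kept well-mapped pairs and ran MACS2 2.1.1.2 on each library separately, without a control library; deepTools was also named in the submitters' processing notes. The deposited lists give, per peak, the ratio (fold) of the summit pileup over the local background, and the authors' −log10 p-value and −log10 q-value. No read counts were used here, so a count test was not run.

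The whole-number pileup and the background were solved from the deposited fold and p-value, which worked for 100% of peaks within 0.02 on the −log10 scale. Stretches of more than 200 bp shared by peaks of both libraries of a group were kept and joined across groups where they overlapped. A promoter peak was the joined peak within 2000 bp of a GENCODE start with the highest mean fold. Log2 pileups of the 28432 peaks found in all 6 libraries, centred on each library's median and with no pseudocount, were fitted over the 3 oxygen levels with limma 3.58.1 (R 4.3.3, eBayes with a mean-variance trend) and adjusted by Benjamini-Hochberg, with a threshold of 0.05. The procedure was tested on simulated data. With 2 libraries a group, an exact permutation test cannot go below p = 0.33, so none was used.

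The members and lists were chosen with earlier results of these data known. Named genes were the 8 lower and up to 8 higher at <0.1% O2 with the smallest adjusted p, 4 and 4 at 1% O2, 3 and 3 for <0.1% against 1% O2, up to 8 with a peak in both libraries of one condition and none of another, the 3 highest and 3 lowest by pileup in normoxia, and clusters of 5 or more by their counts; others are said to be named after their values were seen. Alternatives covered scaling, filters, windows, rank measures, cluster distances, GC content, pseudocount, the replicate block and leaving out each library. Depth per library is known here only as the recovered coverage, and the pileup limits precision at low peaks.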

Additional observations from a re-analysis of the deposited data

Results flagged for a closer look

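For 6 members the signal stood above normoxia at 1% O2 and below it at <0.1% O2, and the direct test of the difference by limma with Benjamini-Hochberg adjustment passed. These were 4.84% of the 124 compared members, beside 6.17% of all genes. The hypoxic groups share their normoxic libraries, and no explanation was weighed. The difference was -0.63 on the log2 scale at Zfp746 (PARIS, a substrate of the ubiquitin ligase Parkin), from 0.31 at 1% O2 and -0.32 at <0.1% O2, with an adjusted p of 0.000766 by limma. Its relative pileups of 2.28 and 1.49 in normoxia, 2.28 and 2.28 at 1% O2, and 1.37 and 1.57 at <0.1% O2 overlapped between normoxia and either hypoxic level. The difference was -0.49 at Zfp932, a KRAB gene known to act on endogenous retroviruses, -0.41 at Zfp960, -0.41 at Zfp638, -0.38 at Zfp619 and -0.32 at Zfp653. Their adjusted p ran from 0.00895 to 0.0429 by limma. Against normoxia, none of the 6 passed at 1% O2, and Zfp746, Zfp619, Zfp932 and Zfp638 passed at <0.1% O2.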

How the results depend on the processing

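Shares after a count are those of all genes under the same setting. Scaling by background coverage left 2 members higher at <0.1% O2 (1.76%), 2 lower and 2 higher at 1% O2 (2.60% and 7.89%), and 45 lower and 0 higher at <0.1% than at 1% O2 (limma; 5 higher in the fit reported), beside 37.5% and 0.0173% of all genes. Quantile normalization gave 12 higher at 1% O2 (17.7%), start regions of at least 90% uniqueness, a choice made after seeing the data, gave 3 (12.7%), and the GC trend left 9 lower and 1 higher at <0.1% than at 1% O2, beside 2.45% and 5.74%. Ranks over each whole peak list gave 16 lower and 12 higher by fold at <0.1% O2 (18.1% and 14.8%) and 5 and 10 at 1% O2 (5.94% and 17.97%), with median changes of -1.14 (clustered) and 0.24 (single, the one reversal) at <0.1% O2 and -0.39 and -0.15 at 1% O2. Ranks by pileup gave 44 lower at <0.1% O2 (34.3%) and 7 higher at 1% O2 (10.46%), with medians of -8.35 (single, <0.1% O2) and -0.66 (clustered, 1% O2), and ranks by −log10 q gave 7 higher at 1% O2 (10.9%), -6.76 and -1.62. A step of 5 points gave 41 lower and 12 higher at <0.1% O2 (36.3% and 16.6%) and 38 and 10 at 1% O2 (24.7% and 16.99%), and a step of 20 points 12 and 3 (13.4% and 2.92%), and 3 and 2 (4.09% and 3.09%). Subtracting the GC trend of the ranks gave 13 higher at <0.1% O2 (16.6%) and a clustered median of -3.18 at 1% O2, where a 500 bp window gave -2.40 and at least 90% uniqueness -2.46, and clusters within 1000 kb gave a single median of -1.43. The cause of these moves was not tested.

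Leaving out 1 library gave 3 to 7 members higher at <0.1% O2 (7.02 to 11.6%), 3 to 5 higher at 1% O2 (7.27 to 12.3%), and 11 to 26 lower and 1 to 5 higher at <0.1% than at 1% O2 (8.18 to 24.9% and 1.04 to 3.97%). By fold rank it gave 7 to 13 higher at <0.1% O2 (11.3 to 14.8%) and 6 to 10 at 1% O2 (13.5 to 15.02%), with medians at <0.1% O2 of -5.20 to -1.94 (clustered) and -3.71 to -0.36 (single), and at 1% O2 of -3.47 to -2.03 and -3.56 to -1.98. Where it left 1 library in a group, that library was assumed to vary like the others. Same-numbered libraries did not deviate together across peaks (r = -0.05, -0.01 and 0.01). These values cannot show whether such libraries were made together, which the labels do not say. With a replicate block, 54 members were lower at <0.1% O2, 32 at 1% O2 and 24 at <0.1% than at 1% O2, and no call of the 29 tests of named genes changed.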

Other observations

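For 8 of the 124 compared members the promoter peak also covered the start of a protein-coding gene outside the family, as at Zfp605 with Gtpbp6, Zfp654 with Cggbp1 and Zfp664 with Ccdc92, and the signal there cannot be assigned to either gene. The peak covered a start site of the member itself in 116 of the 124.

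Members whose start regions were below 90% unique and lay outside the chromosome 17 cluster from Zfp677 to Zfp945 numbered 50, of which 16 were compared. Of these 6 (37.5%) were lower and 2 higher at <0.1% O2 by limma, beside 42.9% and 11.7% of all genes, with a median log2 change of -0.30, beside 43 of 102 (42.2%) lower among the members at or above 90%.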
